A study of Mus musculus with 12 samples.

Results

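Ly6 surface antigens are small proteins of the Ly6/uPAR family that are tethered to the outer face of the plasma membrane by a glycosylphosphatidylinositol (GPI) anchor. In the mouse, Ly6a encodes Sca-1, a marker of blood stem cells and of activated lymphocytes, and Ly6c1 and Ly6c2 encode the Ly6C antigens by which inflammatory monocytes are recognised. Ly6e encodes a broadly expressed antigen known for its part in virus entry, and Ly6i encodes a less studied antigen close to Sca-1. Several Ly6 genes are induced by interferons, and Ly6a is among the best known of them.

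The 5 genes Ly6a, Ly6c1, Ly6c2, Ly6e and Ly6i were followed here in the mouse dendritic cell line DC2.4 by their Ensembl identifiers among the 42687 of the count table. They were chosen by name with an earlier result in view, the higher level of Ly6a in cells given vesicles of activated T cells than in control cells. Values in that contrast are therefore a description and carry no p-value for these genes. Of the 5, 4 were among the 13261 genes with enough counts to be tested. Ly6c1 was not, and Ly6a and Ly6i passed the filter on low counts only through the libraries in which they were high, so counts over the tested members support nothing by themselves. Ly6c2 and Ly6e passed whichever group was set aside.

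The 12 mRNA libraries formed 4 groups of 3, all labelled wild type. Phosphate-buffered saline (PBS) served as the control treatment. Extracellular vesicles of activated T cells (ATEV) were given at 15 µg/mL, and vesicles of non-activated T cells (NTEV) at 30 µg/mL. In the remaining group, 15 µg/mL of ATEV was given after digestion of the vesicles with Baseline-ZERO DNase, an enzyme that degrades DNA (DNase-ATEV). After the dose of NTEV the labels add a note of 5 µg/mL of vesicle DNA, and vesicle doses differed between NTEV and the other vesicle groups. The labels speak of 3 repeats without saying whether these were rounds on the same cells or separate experiments, so p-values measure the spread between these libraries, which may be technical. The single cell line limits every result to that line.

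Libraries held 19.4 to 30.4 M gene counts (1 M = 1e6). ATEV replicates 2 and 3 stood apart from the other libraries on the second principal component (27.9 and 48.3, against -2.03 for ATEV replicate 1 and -23.5 to 2.03 in the other groups), and the differences of ATEV for the members and for the called genes named from the lists are also given with ATEV replicate 1 alone, an alternative chosen after seeing the data. In those fits the spread comes from the other groups and the lone library is assumed to vary like them, and so small a group limits what can be called. Dendritic markers such as Itgax, Zbtb46 and Irf8 were present, while 6 of 14 dendritic markers, among them Flt3, Clec9a and H2-Ab1, stayed under 1 CPM (counts per 1e6 counts of the library) in every library. In bulk RNA, a change in the number of cells that express a gene and a change in RNA per cell cannot be told apart.

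The 5 genes are consecutive protein-coding genes on chromosome 15 in the order Ly6e, Ly6i, Ly6a, Ly6c1, Ly6c2, with Ly6e on the plus strand and the other 4 on the minus strand (order and strand from GENCODE M21, coordinates not given because the files name another build). Their first 90 coding bases, from the start codon, are shown because the members begin nearly alike there, Ly6e aside. Capitals mark bases that differ from Ly6c2 at the same place. Ly6e is shown without marks.
Ly6c2: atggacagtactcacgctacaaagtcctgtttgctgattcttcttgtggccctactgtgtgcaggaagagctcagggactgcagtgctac
Ly6c1: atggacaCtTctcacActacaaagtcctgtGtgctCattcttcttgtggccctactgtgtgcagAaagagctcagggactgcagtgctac
Ly6a: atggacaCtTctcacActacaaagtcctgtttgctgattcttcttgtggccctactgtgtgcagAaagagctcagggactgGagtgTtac
Ly6i: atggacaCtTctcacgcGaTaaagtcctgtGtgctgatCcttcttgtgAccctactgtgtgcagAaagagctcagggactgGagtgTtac
Ly6e: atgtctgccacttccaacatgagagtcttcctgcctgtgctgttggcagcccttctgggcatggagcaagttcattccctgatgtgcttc

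In this stretch Ly6c1 and Ly6a each differed from Ly6c2 at 6 bases and Ly6i at 10. Over the whole coding sequence Ly6c1 and Ly6c2 shared 384 of 393 bases (97.7%). Ly6a and Ly6i shared 86.3%, the 4 pairs of an Ly6C gene with Ly6a or Ly6i shared 83.0 to 83.7%, and Ly6e shared 43.4 to 47.2% with each of the others. Of all 50-base windows in the annotated transcripts, 32.8% of those of Ly6c1 were also found in another gene, 21.5% of them in Ly6c2 and 11.1% in Ly6a. For Ly6a 19.0% were shared, mostly with Ly6c1 (15.0%), for Ly6c2 14.5% and for Ly6i 4.76%, and for Ly6e 0 were. With 100-base windows the shares fell to 10.1% for Ly6c1, 5.81% for Ly6c2, 1.45% for Ly6a and 0 for Ly6i and Ly6e. The read length and the handling of reads with several matches are not given in the sources used here. The split of counts among Ly6a, Ly6c1, Ly6c2 and Ly6i is therefore uncertain to that extent, and sums over them are given beside the single genes.

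**Figure D1:**
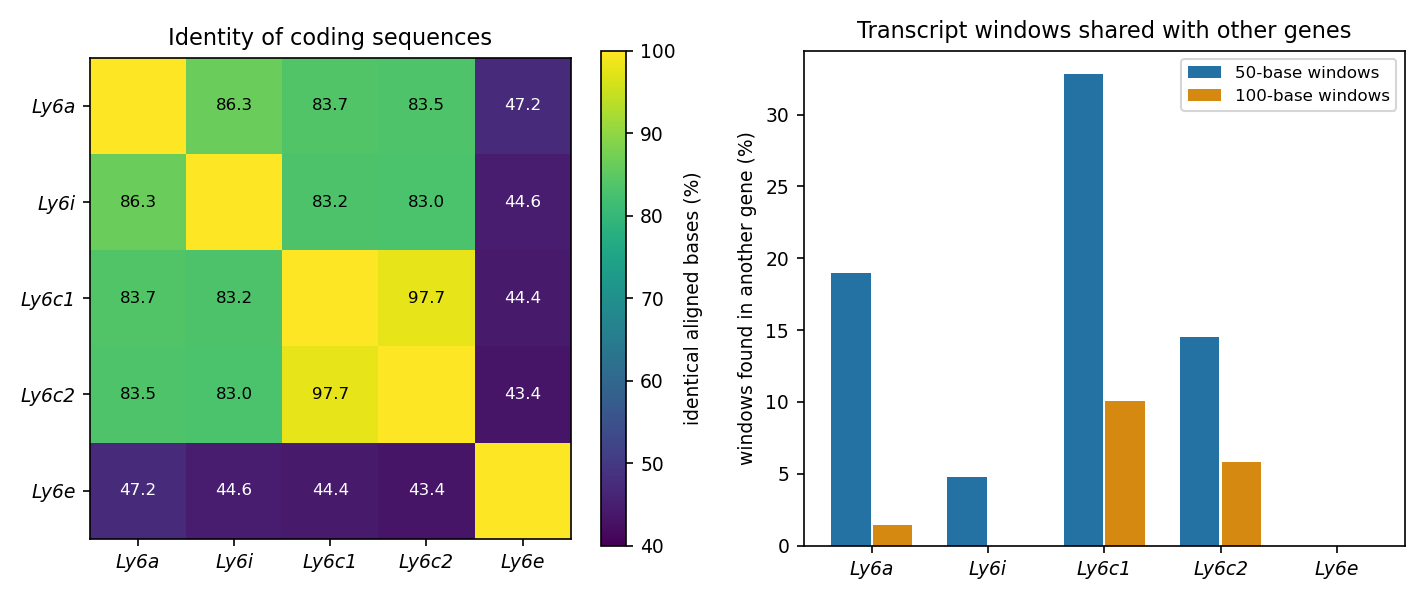
Left, percent of identical bases between aligned coding sequences of each pair of Ly6 genes; right, percent of 50-base and 100-base transcript windows of each gene that also occur in another annotated gene. Ly6c1 and Ly6c2 are 97.7% identical, Ly6e stands at 43.4 to 47.2% from the others, and the shared windows are most frequent in Ly6c1.

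Ly6e dominated the Ly6 mRNA of these cells in every library. Its level was 428 to 468 CPM in PBS, and it made up 99.2 ± 0.0521% (SD, n = 3) of the counts of the 5 genes there, 99.1 ± 0.142% in NTEV, 99.4 ± 0.0557% in DNase-ATEV and 96.3 ± 2.23% in ATEV. Those shares are of raw counts and do not allow for length, and Ly6e has the longest annotated exons of the 5 genes (3.784 kb). Per kilobase of annotated exon, Ly6e stood at 117 ± 5.55 CPM per kb in PBS and 150 ± 11.4 in ATEV. Ly6c2 came next in PBS at 1.02 ± 0.0976 CPM per kb. Ly6a (0.296 ± 0.0539 CPM per kb) and Ly6i (0.246 ± 0.156) overlapped each other in PBS, and Ly6c1 was lowest (0.0417 ± 0.0258). In ATEV Ly6a had the second highest mean, 10.0 ± 5.84 CPM per kb, but its libraries overlapped those of Ly6c2 (2.70 ± 1.78), which in turn overlapped those of Ly6i (1.99 ± 1.16). In NTEV the order below Ly6e was Ly6c2, Ly6i, Ly6a, with overlap between each and the next, and in DNase-ATEV it was Ly6c2, Ly6a, Ly6i, Ly6c1, again with overlap at each step.

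Ly6a went from at most 20 reads per library outside ATEV to at least 110 in ATEV. Its raw counts were 10, 6 and 9 in PBS replicates 1 to 3, and 110, 265 and 354 in ATEV. In NTEV they were 20, 6 and 8, and in DNase-ATEV 20, 6 and 7. The ATEV libraries lay far above the 9 others, which overlapped among themselves. Scaled by the trimmed mean of M-values (TMM), the level was 0.356 ± 0.0649 CPM in PBS, 12.1 ± 7.04 in ATEV, 0.443 ± 0.228 in NTEV and 0.513 ± 0.390 in DNase-ATEV (SD, n = 3).

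The fitted log2 difference of Ly6a between ATEV and PBS, the contrast that chose it, was 5.05 ± 0.59 (SE, 95% interval 3.78 to 6.31), or 33.1-fold. Against DNase-ATEV, Ly6a rose by 4.56 ± 0.56 on the log2 scale (edgeR quasi-likelihood, adjusted p = 0.00101). Against NTEV it rose by 4.72 ± 0.57 (edgeR, adjusted p = 0.000666). Both tests use the ATEV libraries in which the gene was known to be high, so they add only the comparison with the DNase-ATEV and NTEV libraries. With any single library left out Ly6a stayed past the threshold in both, at 4.09 to 5.36 against DNase-ATEV and 4.25 to 5.24 against NTEV. With ATEV replicate 1 alone in its group the difference was 3.22 against DNase-ATEV (edgeR, adjusted p = 0.0835) and 3.38 against NTEV (edgeR, adjusted p = 0.0508), neither past the threshold of 0.05.

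Ly6i lay at the edge of detection outside ATEV. Its raw counts were 11, 7 and 2 in PBS, 26, 42 and 71 in ATEV, 34, 20 and 7 in NTEV, and 5, 8 and 1 in DNase-ATEV. ATEV libraries were above all PBS and DNase-ATEV libraries, while NTEV replicate 1 (1.17 CPM) lay above ATEV replicate 1 (1.12 CPM). Group means were 0.285 ± 0.181 CPM in PBS, 2.30 ± 1.35 in ATEV, 0.774 ± 0.413 in NTEV and 0.220 ± 0.169 in DNase-ATEV (SD, n = 3). The difference between ATEV and PBS was 2.97 ± 0.64 on the log2 scale (SE), or 7.82-fold, and 1.96 with ATEV replicate 1 alone.

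Against DNase-ATEV, Ly6i rose by 3.37 ± 0.68 (edgeR, adjusted p = 0.0238). That call was lost when 1 library was left out in 5 of 6 cases: ATEV replicate 2 (edgeR, adjusted p = 0.0656) or 3 (0.110), or DNase-ATEV replicate 1 (0.0733), 2 (0.0636) or 3 (0.121), with differences of 2.83 to 4.01. With ATEV replicate 1 alone the difference was 2.36 (edgeR, adjusted p = 0.745). Against NTEV the difference of Ly6i was 1.52 ± 0.56 and did not pass the test (edgeR, adjusted p = 0.276), and it was 0.50 with ATEV replicate 1 alone. Between NTEV and PBS it was 1.45 ± 0.68 (95% interval -0.01 to 2.91, edgeR, adjusted p = 0.265). NTEV thus stood between PBS and ATEV for this gene, and neither step passed the test.

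Ly6c2 was the low member with the most counts in every PBS library. Its raw counts were 63, 65 and 65 in PBS, 69, 139 and 238 in ATEV, 91, 43 and 57 in NTEV, and 22, 27 and 42 in DNase-ATEV. At 2.97 CPM, ATEV replicate 1 lay within the PBS range of 2.52 to 3.05 CPM, whereas ATEV replicates 2 and 3 reached 6.64 and 12.6 CPM. The DNase-ATEV libraries, at 1.06 to 1.75 CPM, all lay below the PBS libraries. The difference between ATEV and PBS was 1.40 ± 0.42 on the log2 scale, or 2.64-fold, and 0.10 with ATEV replicate 1 alone.

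Against DNase-ATEV, Ly6c2 rose by 2.42 ± 0.44 (edgeR, adjusted p = 0.0125), 5.37-fold. The call was lost without ATEV replicate 3 (difference 1.80, edgeR, adjusted p = 0.0522), without DNase-ATEV replicate 1 (adjusted p = 0.0580) or 2 (adjusted p = 0.0758), and with limma-voom (adjusted p = 0.0533). With ATEV replicate 1 alone the difference was 1.12 (edgeR, adjusted p = 0.715). Against NTEV the difference of 1.52 ± 0.42 did not pass (edgeR, adjusted p = 0.142), but it did without ATEV replicate 1 (1.91, edgeR, adjusted p = 0.0112) and with DESeq2 (adjusted p = 0.0185); it was 0.90 without ATEV replicate 3 and 0.22 with ATEV replicate 1 alone. Between DNase-ATEV and PBS the difference of Ly6c2 was -1.02 ± 0.44 (95% interval -1.98 to -0.06). Its unadjusted p was 0.0385 and its adjusted p over all genes 0.805 (edgeR).

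Ly6c1 had too few counts to pass the filter on low counts. Its raw counts were 3, 1 and 1 in PBS, 10, 7 and 16 in ATEV, 3, 1 and 3 in NTEV, and 1, 0 and 2 in DNase-ATEV. The lowest ATEV library lay above the highest of the 9 others. Summed counts scaled by depth gave a ratio of 7.28 for ATEV over PBS (33 and 5 counts, 95% interval 2.82 to 23.9), 11.5 over DNase-ATEV (33 and 3 counts, 3.61 to 58.6) and 5.54 over NTEV (33 and 7 counts, 2.41 to 14.8). These intervals cover counting error only, not the spread between libraries. With no filter Ly6c1 differed from DNase-ATEV by 3.40 on the log2 scale (edgeR, adjusted p = 0.0121) and from NTEV by 2.41 (edgeR, adjusted p = 0.0967). It also entered the test of ATEV against DNase-ATEV in 3 fits that left out 1 library, with an adjusted p of 0.0463 without ATEV replicate 2 (difference 3.64) and of 0.0913 and 0.138 without DNase-ATEV replicates 1 and 2 (edgeR). The difference was 3.11 with ATEV replicate 1 alone (edgeR, adjusted p = 0.480).

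Because Ly6c1 and Ly6c2 are so alike, their counts were also added into 1 row, which rose against DNase-ATEV by 2.48 on the log2 scale (edgeR, adjusted p = 0.00941) and differed from NTEV by 1.57 (edgeR, adjusted p = 0.115). With the counts of Ly6a, Ly6c1, Ly6c2 and Ly6i added, ATEV differed from PBS by 2.67 on the log2 scale. That sum rose against DNase-ATEV by 3.37 (edgeR, adjusted p = 0.000910) and against NTEV by 2.51 (edgeR, adjusted p = 0.00462). With ATEV replicate 1 alone the sum of 4 differed by 1.41 from PBS, by 2.12 from DNase-ATEV (edgeR, adjusted p = 0.0212) and by 1.25 from NTEV (edgeR, adjusted p = 0.259), and the sum of Ly6c1 and Ly6c2 by 0.26, 1.27 (adjusted p = 0.561) and 0.36 (adjusted p = 0.898). The sum stood at 3.50 ± 0.197 CPM in PBS, 22.3 ± 13.4 in ATEV, 3.88 ± 1.16 in NTEV and 2.14 ± 0.187 in DNase-ATEV, with no ATEV library (9.26, 21.6 and 36 CPM) inside the range of the others. The sum is the same however reads were split among the 4 genes. It does not allow for reads that were dropped, counted more than once or shared with genes outside the sum. It also contains Ly6a, known to be high in these ATEV libraries, so its tests add only the comparison with the DNase-ATEV and NTEV libraries.

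Ly6e, the abundant member, moved little. Its level was 468, 438 and 428 CPM in PBS replicates 1 to 3, and 536, 617 and 552 CPM in ATEV. In NTEV it was 501, 379 and 457 CPM, and in DNase-ATEV 455, 352 and 350 CPM. The ATEV libraries were above all 9 others, and the other groups overlapped. The log2 difference between ATEV and PBS was 0.35 ± 0.14, or 1.28-fold. Against DNase-ATEV it was 0.56 ± 0.14 (95% interval 0.25 to 0.87) and did not pass with edgeR (adjusted p = 0.0870). It passed with library totals in place of TMM (edgeR, adjusted p = 0.0438), with DESeq2 (adjusted p = 0.0130) and without DNase-ATEV replicate 1 (0.70, edgeR, adjusted p = 0.0432). Against NTEV it was 0.35 ± 0.14 (edgeR, adjusted p = 0.323), and between NTEV and PBS 0.00 ± 0.14 (95% interval -0.31 to 0.31, edgeR, adjusted p = 0.991). Ly6e differed, with ATEV replicate 1 alone, by 0.28 from PBS, by 0.48 from DNase-ATEV (edgeR, adjusted p = 0.812) and by 0.27 from NTEV (adjusted p = 0.869).

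**Figure D2:**
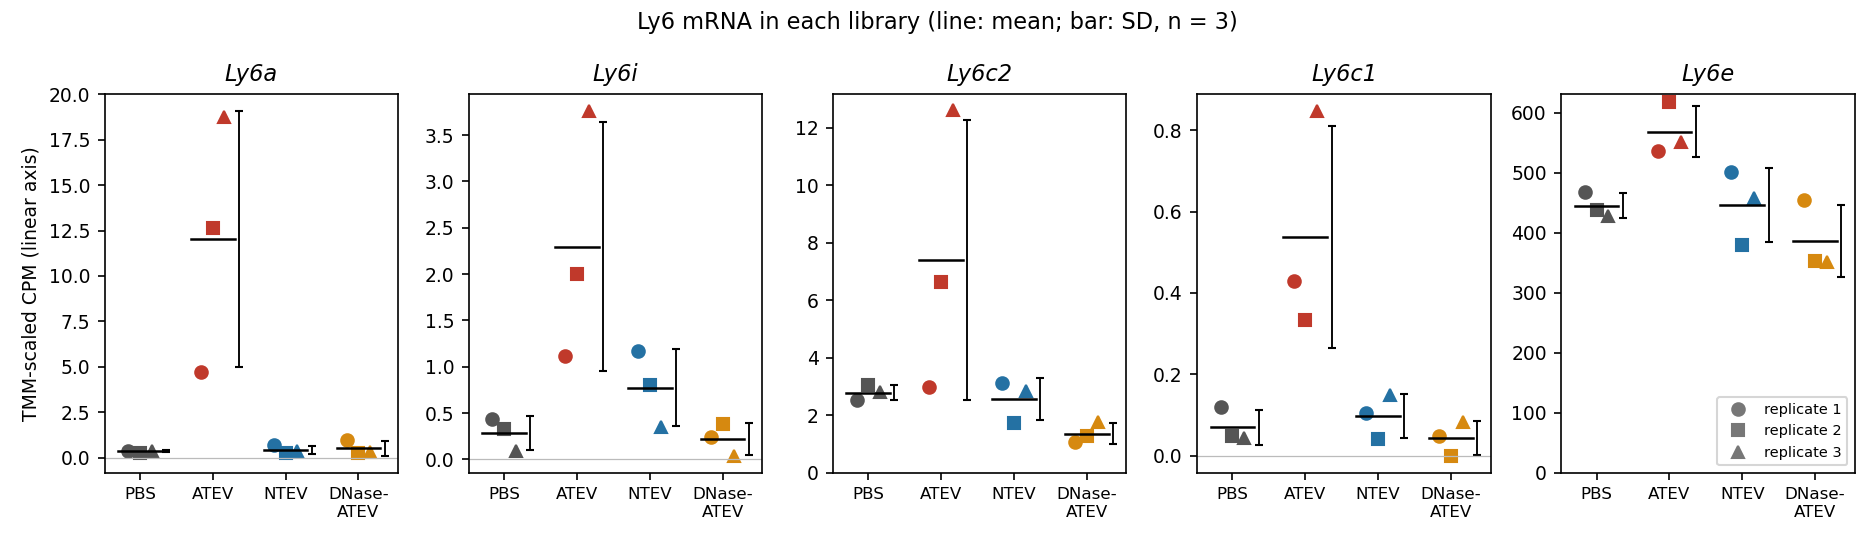
Level of each Ly6 gene in each library in TMM-scaled CPM on linear axes that differ between panels; symbols are replicates 1 to 3 of PBS, ATEV, NTEV and DNase-ATEV, lines are group means and bars the SD of 3 libraries. Ly6a, Ly6c1 and Ly6e have all 3 ATEV libraries above the 9 others. ATEV replicate 1 of Ly6c2 (2.97 CPM) and of Ly6i (1.12 CPM) falls within the range of other groups. How often other genes separate in this way was not counted, so nothing is read from the separation by itself.

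Read against all genes, the calls were as follows. For ATEV against PBS 2 of the 4 tested members, Ly6a and Ly6i, were past the threshold upward, where 3.32% of all tested genes were called higher and 1.42% lower; nothing is read from that count, since this contrast chose the members. With 1 library left out the log2 difference there ran from 4.59 to 5.43 for Ly6a and from 2.43 to 3.46 for Ly6i. For Ly6c2 it ran from 0.79 (without ATEV replicate 3) to 1.78 (without ATEV replicate 1). Of the 6 such fits, Ly6a was past the threshold in 6, Ly6i in 1 and Ly6c2 in 1. For ATEV against DNase-ATEV 3 of 4 (Ly6a, Ly6c2 and Ly6i) were called higher, where 1.32% of genes were called higher and 0.143% lower. That count uses the ATEV libraries in which Ly6a was known to be high, so nothing is read from it by itself. For ATEV against NTEV 1 of 4 (Ly6a) was called higher, where 0.875% of genes were called higher and 0.0603% lower.

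In the 3 contrasts without ATEV no member was called by edgeR, DESeq2 or limma-voom. For DNase-ATEV against PBS 0% of genes were called higher and 0% lower with edgeR, while 791 genes (5.96%) had an unadjusted p under 0.05, 1 of the 4 members (Ly6c2) among them, and DESeq2 called 37 genes. The 95% intervals there were -0.98 to 1.97 for Ly6a, -1.98 to -0.06 for Ly6c2, -2.17 to 1.36 for Ly6i and -0.51 to 0.11 for Ly6e. A difference of more than 2-fold was within the interval upward for Ly6a, downward for Ly6c2 and in both directions for Ly6i. For NTEV against PBS 1.7% of genes were called higher and 0.611% lower. There 0 of the 4 members had an unadjusted p under 0.05, against 19.1% of all tested genes. The interval for Ly6a was -1.14 to 1.80 and for Ly6c2 -1.03 to 0.79.

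NTEV and DNase-ATEV share no library with the contrast that chose the members. There 0.468% of genes were called higher in NTEV and 0.211% lower. The largest member difference was that of Ly6i, 1.86 ± 0.72 higher in NTEV (95% interval 0.31 to 3.41), with an unadjusted p of 0.0223 and an adjusted p of 0.305 (edgeR). Ly6c2 differed by 0.90 ± 0.45 (edgeR, adjusted p = 0.443), Ly6e by 0.21 ± 0.14 (adjusted p = 0.620) and Ly6a by -0.16 ± 0.66 (adjusted p = 0.966). Deviations of same-numbered libraries of these 2 groups had r of 0.619, 0.346 and 0.129. Pairs of them with other numbers ran from -0.537 to 0.384, so pairing by number is not established. A fit of these 2 groups alone with the replicate number as a block was added after seeing the data. It called 609 genes instead of 90. Of the members, Ly6c2 (0.90, edgeR, adjusted p = 0.108) and Ly6e (0.21, edgeR, adjusted p = 0.275) passed the filter in that fit, and neither was called.

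**Figure D3:**
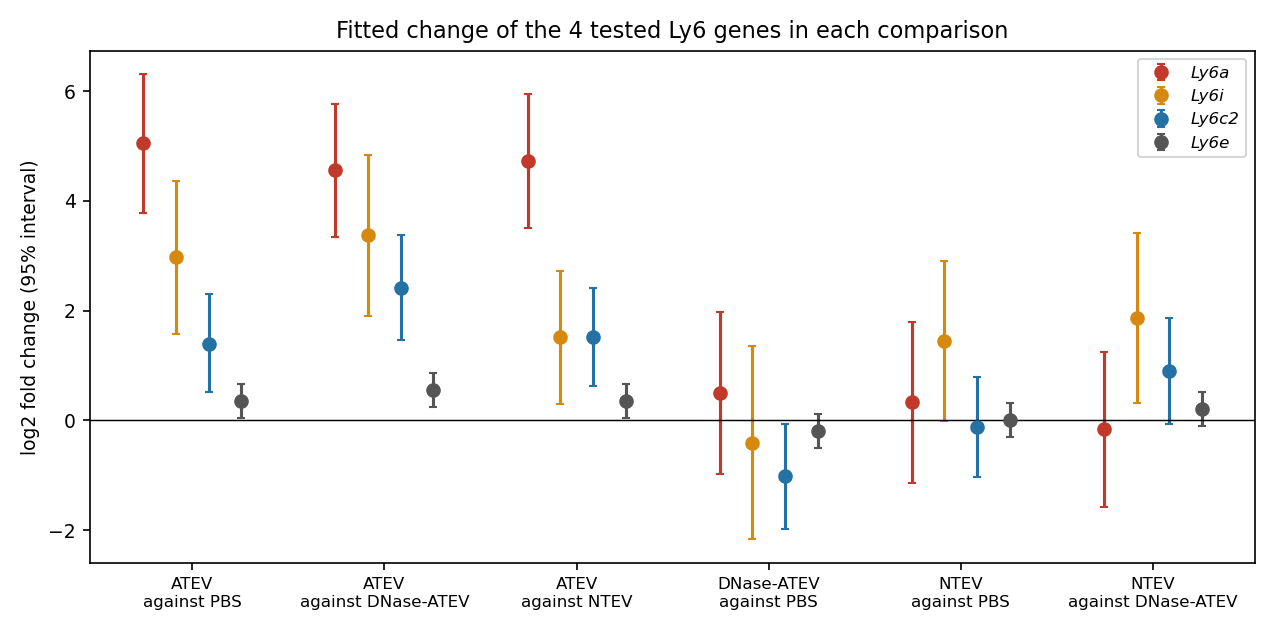
Fitted log2 fold change (first group minus second) of Ly6a, Ly6i, Ly6c2 and Ly6e in the 6 contrasts, with 95% intervals from the edgeR fit of 12 libraries. The 3 contrasts with ATEV lie above 0 for all 4 genes, with Ly6a highest at 4.56 to 5.05; in the 3 contrasts without ATEV all but 2 of the 12 intervals include 0, those of Ly6c2 for DNase-ATEV against PBS and of Ly6i for NTEV against DNase-ATEV.

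Within ATEV the low members were spread widely. The coefficient of variation over the 3 libraries was 58.4% for Ly6a, 58.6% for Ly6i and 65.7% for Ly6c2, against 7.58% for Ly6e and a median of 15.4% over all tested genes. Replicate 1 was the lowest and replicate 3 the highest for Ly6a, Ly6i and Ly6c2. The same 3 libraries gave 2468, 3717 and 5413 CPM of Lyz2, a lysozyme gene of monocytes and macrophages, and 4.48, 17.2 and 29.6 CPM of the neutrophil and monocyte gene S100a8, both named after their values were seen. The summed level of 9 monocyte and macrophage markers ran from 4718 to 7561 CPM in ATEV, 3420 to 3949 in PBS, 4876 to 5578 in NTEV and 3176 to 3505 in DNase-ATEV, and its part in the Ly6 result was not tested. Lyz2 makes up most of the difference of that sum between PBS and ATEV (means of 1662 and 3866 CPM). Cd68 stood at 985 and 1023 CPM, Csf1r at 556 and 558, and Ccr2 at 0.461 and 0.246. Higher means in ATEV than in PBS were also those of Adgre1 (207 and 270 CPM in PBS and ATEV) and Fcgr1 (66.0 and 110). So were those of Itgam (94.2 and 134 CPM), Cd14 (144 and 174) and Mertk (8.01 and 11.1). The summed level of 8 neutrophil markers, of which Ly6g, S100a9 and Retnlg had 0 counts in all libraries, was 4.14 to 6.10 CPM in PBS, 4.78 to 29.7 in ATEV, 3.20 to 11 in NTEV and 4.63 to 7.66 in DNase-ATEV; almost all of it was S100a8, and its part was not tested either.

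T cells, the source of the vesicles, carry Ly6 antigens themselves. Of 18 T-cell markers, 14 stayed under 1 CPM in every library, and 6 of them, Cd3e, Cd8a, Il2ra, Trbc1 and Trbc2 included, had 0 counts in all 12. The summed T-cell markers, mostly Cd28, were 60.5 to 104 CPM in PBS, 46.4 to 65.4 in ATEV, 37.2 to 56.0 in NTEV and 57.5 to 63.4 in DNase-ATEV. The sum hides opposite directions. Mean Cd28 was 72.2 CPM in PBS and 40.7 in ATEV. Lck (7.70 and 11.7 CPM), Cd5 (1.27 and 2.05) and Lat (1.15 and 1.77) had higher means in ATEV than in PBS. Their means were above PBS in NTEV and DNase-ATEV too, and their part in the Ly6 result was not tested. All 5 B-cell and all 4 endothelial markers were under 1 CPM throughout, and the 6 fibroblast markers summed to at most 4.67 CPM.

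The genes whose profile over the 12 libraries was most like that of each Ly6 gene differed between members. The measure was Pearson's r of log2 CPM among about 10359 genes with a mean of at least 1 CPM; it is a description in which the points share their libraries and groups. For Ly6a they were Psmb8 (r = 0.983), an immunoproteasome subunit, Casp1 (0.976), the inflammasome protease, Psme2 (0.973), a proteasome activator subunit, Slamf8 (0.971), a receptor of myeloid cells, and Serpina3f (0.971), a protease inhibitor. Psmb8 ran from 77.5 to 91.4 CPM in PBS and from 140 to 220 in ATEV, and Serpina3f, with 0 counts in all PBS and NTEV libraries, reached 4.05 to 6.26 CPM in ATEV.

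For Ly6e the closest were Morc3 (r = 0.915), Rps6ka3 (0.911), Ifi35 (0.907), an interferon-induced gene, Tnip3 (0.906) and Tmsb10 (0.896). For Ly6i they were Slfn2 (0.893), of the Schlafen family, Ccdc63 (0.884), Fpr2 (0.877), a formyl peptide receptor, Cxcl16 (0.870), a membrane-bound chemokine, and Icam1 (0.856), an adhesion molecule. In NTEV the libraries of Slfn2, Ccdc63, Fpr2 and Cxcl16 lay above those of PBS, and those of Icam1 (81.0 to 86.5 CPM) overlapped PBS (68.9 to 82.8 CPM). These genes were picked for their likeness to Ly6i over the same libraries, NTEV included. Their NTEV levels therefore add no support to that of Ly6i. Cxcl16 stood at 4.07 ± 1.13 CPM in PBS, 9.55 ± 1.52 in NTEV, 16.8 ± 5.87 in ATEV and 6.23 ± 0.648 in DNase-ATEV, and Ccdc63 at 2.87 ± 0.202, 3.40 ± 0.152, 4.22 ± 0.883 and 2.87 ± 0.395 in the same order. For Ly6c2 they were Ndufa7 (0.909), of respiratory complex I, Trappc2l (0.908), of a vesicle tethering complex, Rabepk (0.900), Chrac1 (0.892) and S100a6 (0.885), whose highest library was ATEV replicate 3. Between the members themselves r ran from 0.721 (Ly6c2 and Ly6i) to 0.833 (Ly6a and Ly6e). The genes above were picked for their high r, so their values cannot be compared with these.

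**Figure D4:**
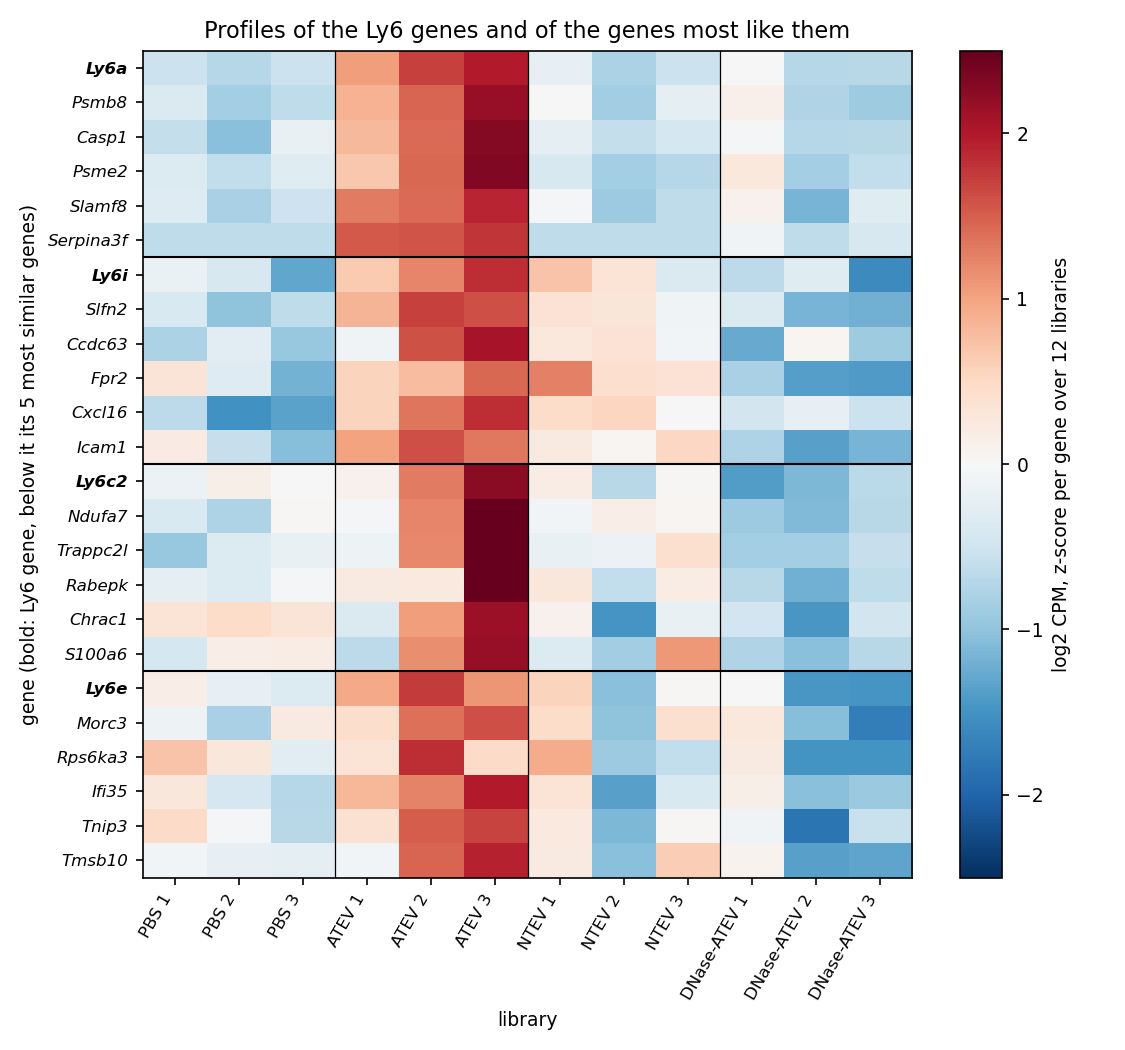
Log2 CPM as z-scores per gene over the 12 libraries (columns) for the 4 tested Ly6 genes in bold, each with its 5 most similar genes below it. The block of Ly6a is high in all 3 ATEV libraries, that of Ly6i is also pale red in some NTEV libraries, and that of Ly6c2 is darkest in ATEV replicate 3.

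Interferon signalling genes, known to act on Ly6 genes, were taken as a list of 13, all tested. For ATEV against PBS, where 3.32% of all tested genes were called higher and 1.42% lower, 4 rose and 0 fell. Among them were Stat2, a transcription factor downstream of interferon receptors (1.25 ± 0.29, edgeR, adjusted p = 0.0300), Irf9, its partner (1.45 ± 0.23, adjusted p = 0.00293), and Irf1, an interferon-induced factor (2.83 ± 0.37, adjusted p = 0.000786). The list's median was 0.47 on the log2 scale against 0.03 over all tested genes. For ATEV against DNase-ATEV 2 rose, Irf1 (2.21 ± 0.36) among them, with a median of 0.25 against 0.00. For ATEV against NTEV 3 rose, Irf1 (2.86 ± 0.37) and Irf9 (1.28 ± 0.23) among them, with a median of 0.15 against -0.01. Of all tested genes, 1.32% were called higher against DNase-ATEV and 0.875% against NTEV. With 1 library left out, Irf1 stayed called in all 3 contrasts with ATEV, Irf9 lost its call against NTEV without NTEV replicate 3 (edgeR, adjusted p = 0.0815), and Stat2 lost its call against PBS when the library left out was ATEV replicate 2, ATEV replicate 3, PBS replicate 1 or PBS replicate 2 (edgeR, adjusted p of 0.0572 to 0.126). With ATEV replicate 1 alone, Irf1 differed by 2.81 from PBS and stayed called (edgeR, adjusted p = 0.0422), and was not called against DNase-ATEV (2.18, adjusted p = 0.230) or NTEV (2.83, adjusted p = 0.0583). Irf9 was then not called against PBS (1.66, edgeR, adjusted p = 0.0572) or NTEV (1.48, adjusted p = 0.161), nor Stat2 against PBS (1.25, adjusted p = 0.275). In the contrasts without ATEV edgeR called 0 of 13 (3, 4 and 2 had an unadjusted p under 0.05 for DNase-ATEV against PBS, NTEV against PBS and NTEV against DNase-ATEV). Of all tested genes, 5.96%, 19.1% and 12.3% had an unadjusted p under 0.05 there. In these contrasts limma-voom called 0 of the list, and DESeq2 called 1, Jak2 for NTEV against PBS.

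Irf1 varied less within ATEV than the low Ly6 genes did. It stood at 120, 127 and 122 CPM in ATEV replicates 1 to 3, where Ly6a stood at 4.74, 12.7 and 18.8 CPM. ATEV replicate 1 was the lowest of the 3 for both genes, by a small margin for Irf1. The order differed for other genes of the list. Irf9 was highest in ATEV replicate 1 (33.3, 27.4 and 26.3 CPM in replicates 1 to 3). Stat2 was lowest in replicate 3 (44.3, 51.1 and 38.0 CPM).

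Most of the rest of the Ly6/uPAR family had few counts or none. Of 40 further family genes, 34 were in the table, 18 had no count in any library and 2 were tested. Neither was called in any contrast by edgeR, DESeq2 or limma-voom, though 1 had an unadjusted p under 0.05 in each of 3 contrasts. These were ATEV against PBS, NTEV against PBS and NTEV against DNase-ATEV, where 26.8%, 19.1% and 12.3% of all tested genes did. Plaur, the urokinase receptor, stood at 50.1 ± 5.34 CPM in PBS, 64.3 ± 15.1 in ATEV, 55.3 ± 25.2 in NTEV and 46.7 ± 6.02 in DNase-ATEV. Lypd6b stood at 0.198 ± 0.104, 0.563 ± 0.115, 0.678 ± 0.357 and 0.316 ± 0.0687 CPM in the same order. Ly6g, the neutrophil antigen gene next to Ly6c2 on the chromosome, had 0 counts, and Cd59a and Cd59b, which encode a complement inhibitor, had 3 and 4 counts over the 12 libraries; these and Lypd6b are named after their counts were seen.

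The machinery that makes and attaches GPI anchors did not pass the test in any contrast with edgeR: of 29 genes tested, 0 were called, while 6 had an unadjusted p under 0.05 for ATEV against PBS, 7 against DNase-ATEV and 6 against NTEV. Of all tested genes, 26.8%, 15.2% and 13.4% had an unadjusted p under 0.05 in these contrasts. DESeq2 called 4 for ATEV against PBS (Pigc, Pigp, Pigu and Pgap1) and 1 for ATEV against NTEV (Pgap1), genes named after their values were seen; limma-voom called 0. The median was 0.04 on the log2 scale for ATEV against PBS, against 0.03 over all tested genes.

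Other GPI-anchored surface proteins changed in both directions. Of 11 tested, 4 rose for ATEV against PBS and 1 fell, with a median of 0.41 against 0.03 over all tested genes. In that contrast 3.32% of all tested genes were called higher and 1.42% lower. Bst1, an ectoenzyme, rose by 2.05 ± 0.23 (edgeR, adjusted p = 0.000275), Cd52, a small leukocyte antigen, by 1.52 ± 0.29 (adjusted p = 0.0107), Ulbp1, a ligand of the receptor NKG2D, by 1.17 ± 0.26 (adjusted p = 0.0262), and Bst2, which tethers virions, by 0.65 ± 0.11 (adjusted p = 0.00543). Cd24a, a heavily glycosylated adhesion protein, fell by 2.75 on the log2 scale (edgeR, adjusted p = 0.000121). Against DNase-ATEV, Bst1 (1.84 ± 0.23), Cd52 (1.49 ± 0.29) and Bst2 (0.66 ± 0.11) rose, and against NTEV Bst1 (1.01 ± 0.22, edgeR, adjusted p = 0.0496). Of all tested genes, 1.32% were called higher against DNase-ATEV and 0.875% against NTEV. For NTEV against PBS 1.7% were called higher and 0.611% lower, Bst1 (1.05 ± 0.23) and Cd24a (-2.42 ± 0.27) among them. With 1 library left out, Bst1 against PBS and DNase-ATEV and Cd24a in both contrasts stayed called. Other calls were lost (edgeR): Ulbp1 without ATEV replicate 2 and without each of the PBS libraries (at most 0.127), Cd52 and Bst2 against PBS without PBS replicate 2 (0.0658 and 0.0616), Cd52 against DNase-ATEV without ATEV or DNase-ATEV replicate 2 or 3 (up to 0.104), and Bst2 there without DNase-ATEV replicate 2 or 3 (up to 0.0712). Bst1 kept its call in 1 of 6 such fits for ATEV against NTEV (lost except without ATEV replicate 1). For NTEV against PBS it also kept it in 1 of 6 (lost except without NTEV replicate 1). Against NTEV it was further lost with RLE in place of TMM scaling (edgeR, adjusted p = 0.0523) and with library totals (0.0593). The replicate block (0.0606) and a fit of only those groups (0.179) lost it too. For NTEV against PBS limma-voom (adjusted p = 0.0669) and only those groups (edgeR, adjusted p = 0.0991) lost it. Cd52 differed, with ATEV replicate 1 alone, by 0.56 from PBS (edgeR, adjusted p = 0.314) and by 0.52 from DNase-ATEV (adjusted p = 0.812). Bst1 (1.64, adjusted p = 0.0357) and Cd24a (-2.72, adjusted p = 0.0339) then stayed called against PBS; Ulbp1 (1.00) and Bst2 (0.63) did not, nor did Bst1 (1.41) and Bst2 (0.64) against DNase-ATEV or Bst1 against NTEV (0.58). For DNase-ATEV against PBS edgeR and limma-voom called 0 of 11 (3 at an unadjusted p under 0.05 with edgeR) and DESeq2 called Cd24a. For NTEV against DNase-ATEV edgeR and limma-voom called 0 (4 at an unadjusted p under 0.05 with edgeR) and DESeq2 called Bst1. Of all tested genes, 5.96% and 12.3% had an unadjusted p under 0.05 in these 2 contrasts.

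The RefSeq table of promoters (GRCm38.p6, 300 bases around each start) held entries for Ly6c1 and Ly6c2, 2 each. Neither TTCNNNGAA, the letters of a gamma-activated site, nor GAAANNGAA, the core letters of an interferon response element, was found in any of the 4 windows on either strand. Of all 32851 promoter windows in the table, 8.30% held the first and 8.56% the second. The search says only that these letters are not in these windows.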

How the data were processed

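Stranded mRNA libraries of DC2.4 cells were analysed from the deposited raw counts of each gene in each library, whole numbers that the authors had not scaled as far as the values show. Cufflinks 2.1.1, TopHat2 2.0.11, TopHat, bcl2fastq 2.19 and the build mm9 are listed in the submitters' processing notes; the read counter, annotation and strand setting are not given in the sources used here. Of 42687 identifiers, 42250 were matched to symbols. Groups came from the treatment labels and replicate numbers from the titles. Library totals were 19.4 to 30.4 M (1e6 counts), and replicates differed by more than counting noise (chi-square per degree of freedom 14.3 to 128).

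In R 4.3.3, edgeR 4.0.16 was run with filterByExpr (minimum count 10, total 15), TMM scaling and 1 mean per group over all 12 libraries. The 6 contrasts were tested by the quasi-likelihood F test, two-sided, with Benjamini-Hochberg adjustment over 13261 genes; called means an adjusted p under 0.05. DESeq2 1.42.0, limma-voom (limma 3.58.1), other filters and scalings, a replicate block, leave-outs and summed genes were alternatives. Log2 CPM for profiles used a prior count of 2. Ratios for Ly6c1 use exact 95% counting intervals. Coding sequences of GENCODE M21 were aligned with MAFFT 7.526.

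The members and lists were chosen with earlier results of these data known. Named were the 5 members, up to 6 called genes per list, Plaur, and per tested member the 5 most similar named genes; some genes that meet this rule are not reported here. Same-numbered libraries were checked for pairing by the correlation of their deviations from group means. Only for NTEV and DNase-ATEV did all 3 pairs exceed 0.1 (0.619, 0.346 and 0.129). The 18 same-number pairs of all groups ran from -0.382 to 0.619, and 6 of them exceeded 0.1. The 36 other-number pairs ran from -0.537 to 0.438, and 12 of them exceeded 0.1.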

Additional observations from a re-analysis of the deposited data

How the results depend on the processing

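Of 362 refits of members or their sums, 315 kept direction and side of the threshold, 9 gained a call, 22 lost one and 16 changed sign. For ATEV against PBS the count of members called was 2; it was 4 without the filter, 3 with DESeq2, 1 with 4 genes summed, 1 without ATEV replicates 2 and 3 (then 1 with Ly6c1 and Ly6c2 summed and 0 with 4 genes summed), and 1 to 3 leaving out 1 library. For ATEV against DNase-ATEV it was 3; it was 4 without the filter, with DESeq2 and with library totals, 2 with limma-voom, 1 with 4 genes summed, 0 without ATEV replicates 2 and 3 (then 0 and 1 with those sums), and 1 to 3 leaving out 1 library. For ATEV against NTEV it was 1; it was 2 without the filter and with DESeq2, 0 without ATEV replicates 2 and 3 (then 0 and 0 with those sums), and 1 to 2 leaving out 1 library. Summing leaves fewer rows to call. A replicate block changed no member count (2, 3 and 1 with ATEV, 0 in the others). Sign changes were confined to uncalled members in the contrasts without ATEV: for DNase-ATEV against PBS Ly6i (0.09 without PBS replicate 1, 0.11 without DNase-ATEV replicate 3) and Ly6a (-0.32 without DNase-ATEV replicate 1, -0.71 summed), with leave-out ranges of -1.05 to 0.11 and -0.32 to 0.79; for NTEV against PBS Ly6a (-0.18 without NTEV replicate 1), Ly6c2 (0.09 without NTEV replicate 2) and Ly6e, at 0.00 from the start (0.00 with a 1 CPM filter and with the replicate block, -0.01 with voom, -0.02 and -0.04 without PBS replicates 2 and 3, -0.08 and -0.01 without NTEV replicates 1 and 3), with leave-out ranges of -0.18 to 0.63, -0.29 to 0.09 and -0.08 to 0.10; for NTEV against DNase-ATEV Ly6a (0.13 without NTEV replicate 2, 0.64 without DNase-ATEV replicate 1, 0.86 summed), with a leave-out range of -0.68 to 0.64. The values marked as summed are those of the sum of 4 genes, not of Ly6a. In PBS, NTEV and DNase-ATEV that sum held 193, 191 and 91 counts of Ly6c2 and 25, 34 and 33 of Ly6a. The cause of the sign changes was not tested. Counts over all genes moved more: for ATEV against PBS 628 became 1517 with DESeq2, 1317 without the filter, 1244 with only those groups, 1440 with the block and 169 to 849 leaving out 1 library; for NTEV against PBS 306 became 826, 876, 19, 343 and 34 to 1685; for ATEV against DNase-ATEV 194 became 467, 394, 178, 261 and 78 to 522; for ATEV against NTEV 124 became 361, 242, 82, 135 and 70 to 302; for NTEV against DNase-ATEV 90 became 366, 319, 2, 41 and 4 to 321; for DNase-ATEV against PBS 0 became 37, 47, 0, 1 and 0 to 8. Depth limits Ly6a, Ly6i and Ly6c1, which had under 40 counts per library outside ATEV.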
